A study of Mus musculus with 6 samples.

Results

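Translation initiation factors are the proteins that bring the initiator tRNA, a messenger RNA and the ribosomal subunits together at a start codon. Their genes were taken as all listed genes whose symbol begins with Eif1 to Eif6, without the eIF2 kinase genes (Eif2ak), the Y-linked Eif2s3y and pseudogenes. This gave 46 of 11108 listed genes, of which 5 belonged to eIF1, 5 to eIF2, 5 to eIF2B, 14 to eIF3, 13 to eIF4, 3 to eIF5 and 1 to eIF6. Their transcripts were measured in bone marrow hematopoietic stem cells, the self-renewing source of all blood lineages. There were 3 libraries from Mcph1-/- mice and 3 from wild-type (WT) mice, with no treatment in either genotype. Mcph1 encodes microcephalin, which acts in chromosome condensation and DNA repair. Each was an RNA-seq library made by Smart-seq2, which copies full-length transcripts, from 200 cells sorted as lineage-negative, Sca-1+, c-kit+, CD34- and CD150+. The labels name no age, sex or strain, do not describe the Mcph1 allele, and leave unsaid whether replicates are different animals. P-values here therefore speak of the spread among these libraries alone, and that spread may be technical.

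Initiation runs in steps that the factor numbers roughly follow. eIF2 carries the initiator tRNA as a GTP complex, eIF1, eIF1A and eIF3 bind the small ribosomal subunit, and eIF4 proteins recognise the cap and unwind the messenger RNA. eIF5 and eIF5B then drive GTP hydrolysis and joining of the large subunit, while eIF2B recharges eIF2 with GTP. Phosphorylation of eIF2 blocks eIF2B and lowers initiation in stressed cells, and 4E-binding proteins restrain the cap-binding protein eIF4E until mTORC1 phosphorylates them. Hematopoietic stem cells are known for a low rate of protein synthesis.

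Many messenger RNAs of the translation machinery begin with a C followed by a run of pyrimidines, the 5′ terminal oligopyrimidine tract through which mTORC1 adjusts their translation. The sequences at the gene starts are shown because that tract is a feature the choice of genes did not use. RefSeq starts (GRCm38.p6) were matched by symbol for 36 of the 46 genes, and 6 of them had a C followed by at least 5 pyrimidines (C or T), on the strand of the gene, beginning within 5 bases of a start. The share was 16.7% of the matched genes, close to the 11.9% of all 27025 symbols with a start. Each line below gives 15 bases before and 15 from the start, 5′ to 3′. Capitals mark the tract from the qualifying C nearest to the start, and pyrimidines just before that C stay in lower case. Counted so, Eif2s3x and Eif3f had 11 bases that begin at the start itself, Eif3l and Eif2b2 had 9 and 8 bases, and Eif2b5 and Eif4g1 (not shown) had 6 each. Eif1ax and Eif3a, which are described further on, had none in this window.
Eif2s3x: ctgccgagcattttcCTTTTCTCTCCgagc
Eif3f: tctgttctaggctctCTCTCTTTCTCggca
Eif3l: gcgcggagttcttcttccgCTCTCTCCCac
Eif2b2: tttcaccgagcggaagttgaCCTCTCTCgg
Eif1ax: gaggaggaggagggcggggagaagccccgc
Eif3a: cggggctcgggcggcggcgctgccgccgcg
These windows lie at chrX:94212637-94212666 (minus strand), chr7:108934400-108934429 (plus strand), chr15:79075208-79075237 (plus strand), chr12:85219466-85219495 (plus strand), chrX:159372163-159372192 (plus strand) and chr19:60790679-60790708 (minus strand). A match describes the letters only.

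Values are normalised read counts, the reads of a gene divided by 1 size factor per library, and libraries held 9464810 to 10455908 reads in Mcph1-/- and 8102605 to 8655123 in WT. Mcph1 itself was read in every library, at 37.7 to 427.8 in Mcph1-/- and 34.4 to 341.0 in WT. The deleted part of the gene is unknown, so these values do not test the labels, on which all directions rest. All 12 stem cell markers looked for were listed, with summed values of 15830 to 17129 in Mcph1-/- and 20563 to 21855 in WT, although Slamf1, which encodes the sorting marker CD150, was at 0 or 1 read in 1 library of each genotype. Of the 12 stem cell markers, 4 had a higher and 8 a lower mean log value in Mcph1-/-, and 3 lay lower without overlap. Of all genes with a mean of at least 10, 53.8% had a higher mean log value in Mcph1-/-. Without overlap, 7.4% of them lay higher and 6.8% lower. Sums for several other cell types also differed between the genotypes. The 10 markers of dividing cells, all with a higher mean log value in Mcph1-/- and 6 without overlap, summed to 11236 to 13044 in Mcph1-/- and 4988 to 5447 in WT. The 11 erythroid markers summed to 31787 to 40040 in Mcph1-/- and 4731 to 20733 in WT, with Gata1, Epor, Hbb-bs and Tfrc among those at 0 in at least 1 library. Of these 11, 8 had a higher and 3 a lower mean log value in Mcph1-/-, and 5 lay higher and 2 lower without overlap. Car1, an erythroid carbonic anhydrase, made up most of the sum, at 23716 to 31845 in Mcph1-/- and 1628 to 4566 in WT, while Hba-a1, a globin gene, was at 55.0 to 185 in Mcph1-/- and 251 to 8516 in WT. The 7 listed of 10 neutrophil markers summed to 3287 to 18724 in Mcph1-/- and 58564 to 67847 in WT. Among these 7, 1 had a higher and 6 a lower mean log value in Mcph1-/-, and 4 lay lower without overlap. Elane ranged from 0 to 8095 in Mcph1-/- and from 1.01 to 3614 in WT. The 3 listed of 6 monocyte markers summed to 4436 to 4792 in Mcph1-/- and 7872 to 12700.0 in WT, and the sums of listed B cell, T cell, megakaryocyte and endothelial markers overlapped. As single genes, 1 monocyte and 1 endothelial marker lay lower without overlap. These sums differed along with the genotype, and their part in the results below was not tested. The sort is meant to leave out mature cells of these lineages. In such bulk samples, fewer cells of a type and less RNA per cell cannot be told apart.

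Initiation factor genes were among the well-read genes of these cells. Their median mean value was 1610, against 286 for the 10846 genes tested (those with a mean of at least 10), and all 46 passed that filter. The highest Mcph1-/- library exceeded the lowest more than 2-fold for 13 of the 46 (28.3%), against 56.1% of all tested genes, and in WT for 15 (32.6%), against 68.2%. The median SE of the log2 fold change was 0.32 for these genes and 0.81 for all. The part of their higher level in that difference was not tested.

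**Figure D1:**
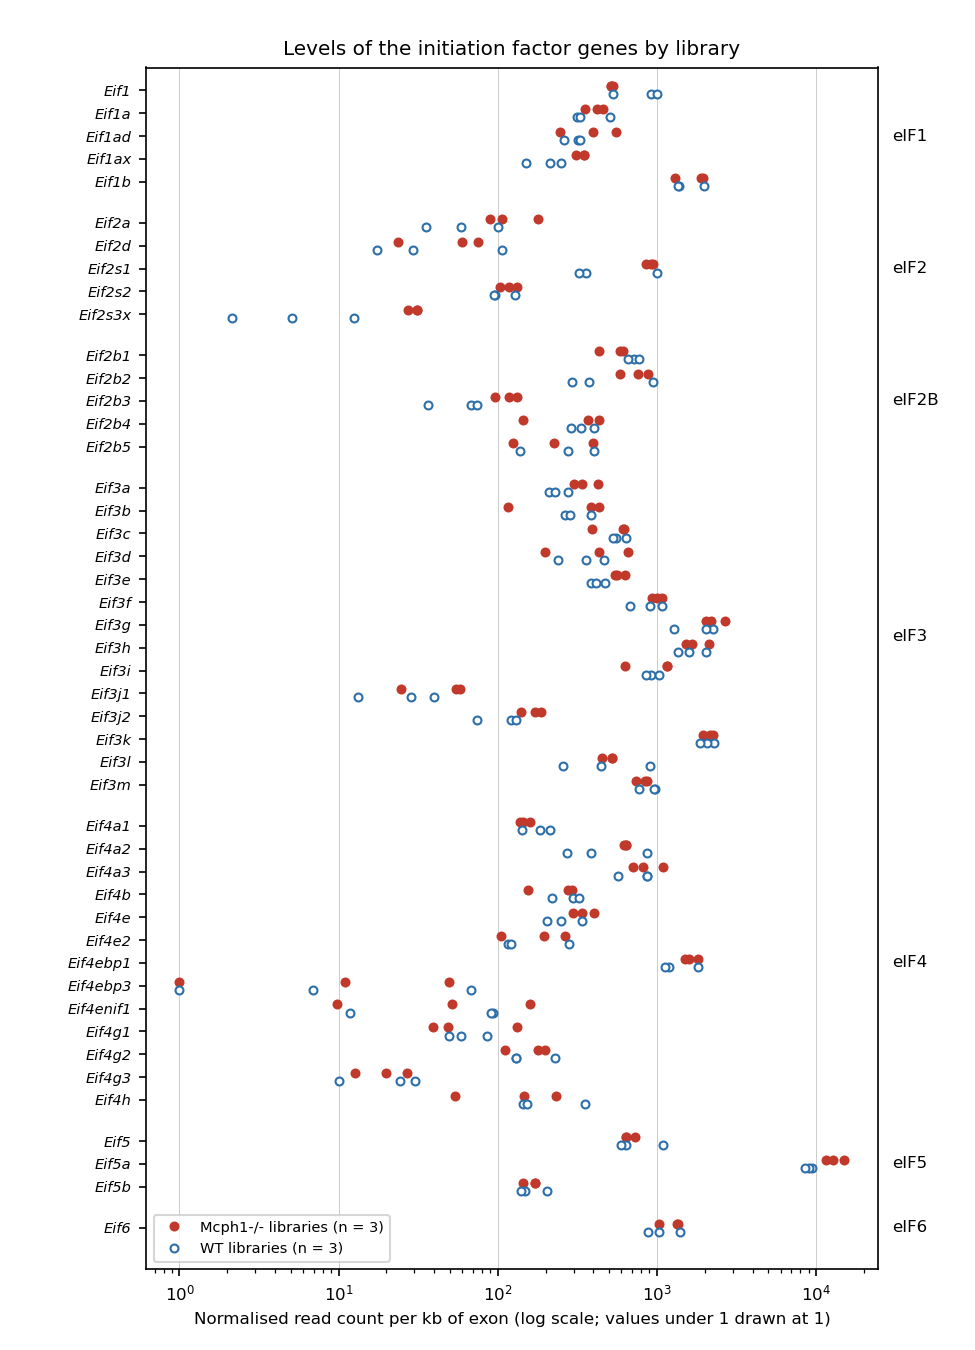
Normalised read count per kb of exon (log axis) for each of the 46 genes, with 3 Mcph1-/- libraries as filled points above 3 WT libraries as open points, grouped by factor (values under 1 are drawn at 1). Eif5a stands alone at the right, the libraries of most genes lie close together, and those of Eif2s3x, Eif4ebp3 and Eif4enif1 spread widely.

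Counts per kb of exon allow a rough comparison of genes. On this scale Eif5a was far above the rest, at 13160.4 ± 1795 in Mcph1-/- and 8998 ± 466 in WT (SD, n = 3 each). eIF5A, the carrier of the amino acid hypusine, helps ribosomes through difficult peptide bonds and at termination. The next places by this length went to eIF3 subunit genes. Eif3k stood at 2129 ± 151 in Mcph1-/- and 2074 ± 222 in WT per kb, Eif3g at 2304 ± 329 in Mcph1-/- and 1865 ± 521 in WT and Eif3h at 1771 ± 309 in Mcph1-/- and 1666 ± 346 in WT. The spreads of these 3 overlapped, so their order was not resolved. The lowest per kb were Eif3j1, Eif4ebp3, Eif4g3 and Eif2s3x, the last at 29.8 ± 2.11 in Mcph1-/- and 6.56 ± 5.30 in WT. Subunits of 1 complex could be read unevenly on this scale. Within eIF2, a complex of equal parts, Eif2s1 (alpha) had a mean over all 6 libraries of 735 per kb and Eif2s2 (beta) 112. Eif2s3x (gamma) had 18.2, but it held only 0.61% to 16.3% of the summed values of Eif2s3x and its Y-linked copy. The 18.2 is therefore not the level of the gamma subunit, and the 2 genes together were not computed per kb. Lengths are of all annotated exons together, which can far exceed the longest coding transcript. They were 6719 against 1506 bases for Eif3e and 3702 against 1123 for Eif3i, so the order below Eif5a depends on the length used. In addition, 37.0% of the Eif2s3x transcript and 39.0% of the Eif2s2 transcript are near-identical to another annotated gene. The counting could split such reads.

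The comparison asked which initiation factor transcripts differed between Mcph1-/- and WT stem cells. None of the 46 passed the threshold (limma adjusted p under 0.05 over all genes tested). Of all 10846 genes 4 did (0.0369%), with 0.00922% higher and 0.0277% lower in Mcph1-/-. These 4 were markers of the cell type lists above, 1 erythroid and 3 neutrophil. edgeR's quasi-likelihood test called none of the 46 either (0.0184% of all genes), and DESeq2 called 1, Eif5a (adjusted p = 0.00189, against 0.00189 to 0.858 over all fits of this gene), where DESeq2 called 2.16% of all genes. DESeq2 gave no adjusted p for Eif2s3x (unadjusted p = 0.0319), Eif3j1, Eif4g3 and Eif4ebp3. At an unadjusted limma p under 0.05, 5 of the 46 were higher in Mcph1-/- (10.9%, against 4.16% of all tested genes) and 0 were lower (against 3.55%), beside 7.71% of all genes in either direction. The 5 were Eif5a, Eif1ax, Eif3e, Eif3a and Eif2b3. All 3 Mcph1-/- values lay above all 3 WT values for 7 genes (15.2%, against 7.4%), the same 5 with Eif2s3x and Eif3j2, and below for Eif1 and Eif2b1 (4.35%, against 6.8%). By the mean of log2(value + 1), 33 were higher in Mcph1-/- (71.7%, against 53.8% of all tested genes) and 13 lower. Their log2 fold changes had a median of 0.14, beside 0.076 over all tested genes. The 2 medians were 0.17 and 0.0052 by edgeR and 0.14 and -0.025 by DESeq2, so the gap to all genes depended on the method. By limma they were 0.23 and 0.13 without Mcph1-/- replicate 1, and both 0.090 without Mcph1-/- replicate 3. The 9 genes without overlap became 14 without WT replicate 1 (30.4%, against 25.3% of all tested genes) and 15 without WT replicate 3 (32.6%, against 30.8%). Of the 6 genes with a tract at their start, 5 had a positive log2 fold change, from 0.0063 for Eif4g1 to 2.46 for Eif2s3x, and Eif2b5 had -0.15.

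**Figure D2:**
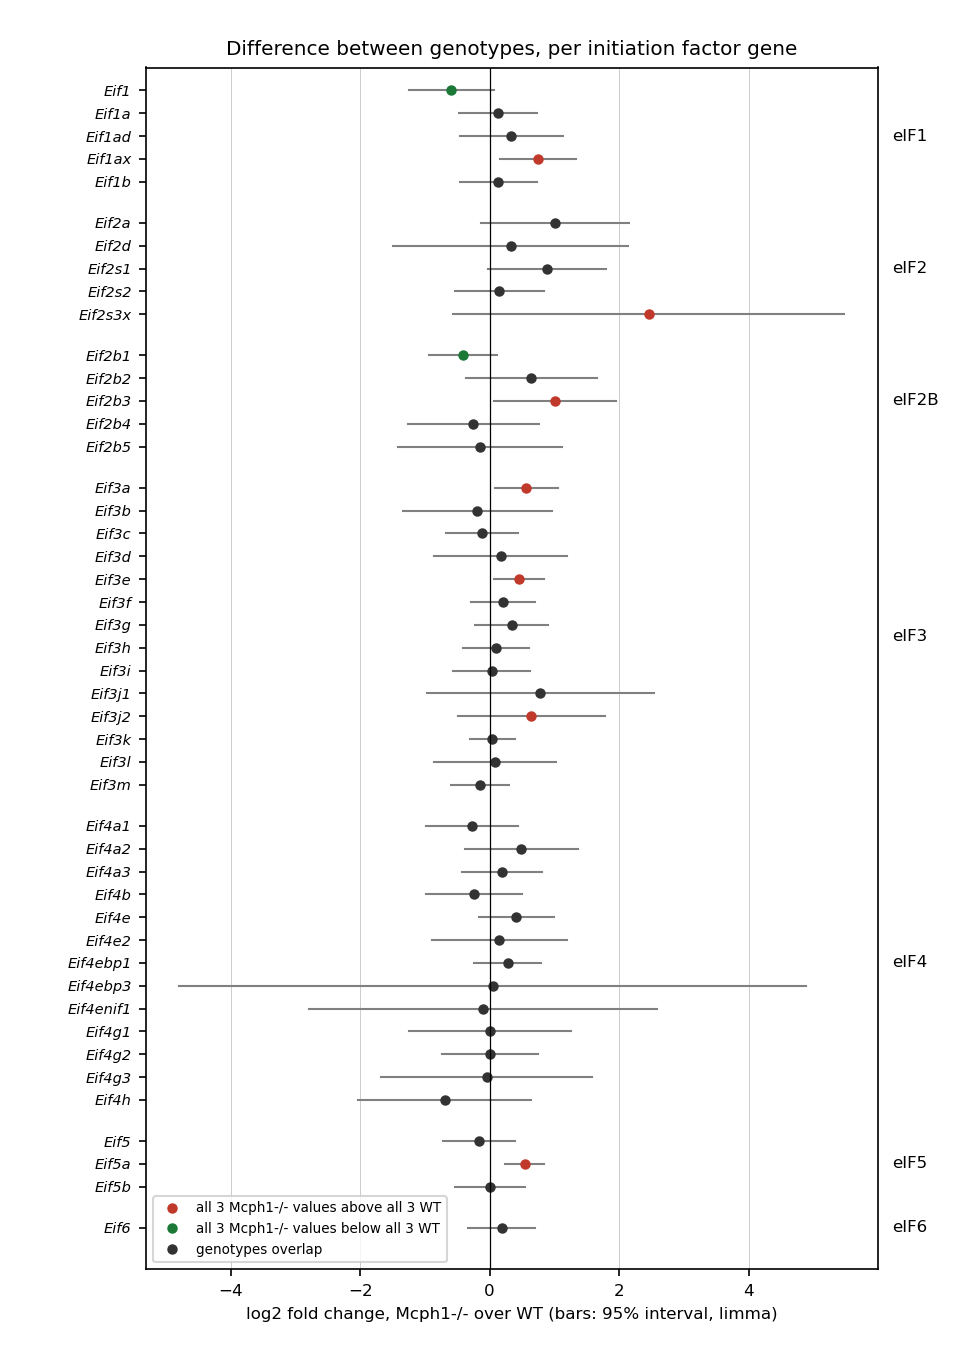
log2 fold change (Mcph1-/- over WT) of each gene with its 95% interval from limma, grouped by factor, with colours for genes whose genotypes do not overlap. Intervals of Eif5a, Eif1ax, Eif3a, Eif3e and Eif2b3 lie above 0 before adjustment, and those of all other genes include 0.

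Summed over all 46 genes, the values were 107264, 119709 and 115503 in Mcph1-/- and 93370.4, 94715 and 100605 in WT, which do not overlap. They made up 1.24% to 1.40% of reads in Mcph1-/- and 1.06% to 1.15% in WT. Without Eif5a the sums were 79845, 83849 and 84935 in Mcph1-/- and 70892, 73293 and 80339 in WT, and the lowest Mcph1-/- library lay below the highest WT library. As shares of reads, the genes without Eif5a made up 0.925%, 0.978% and 1.003% in Mcph1-/- and 0.807%, 0.842% and 0.917% in WT. These shares did not overlap, so the overlap without Eif5a depended on the measure.

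**Figure D3:**
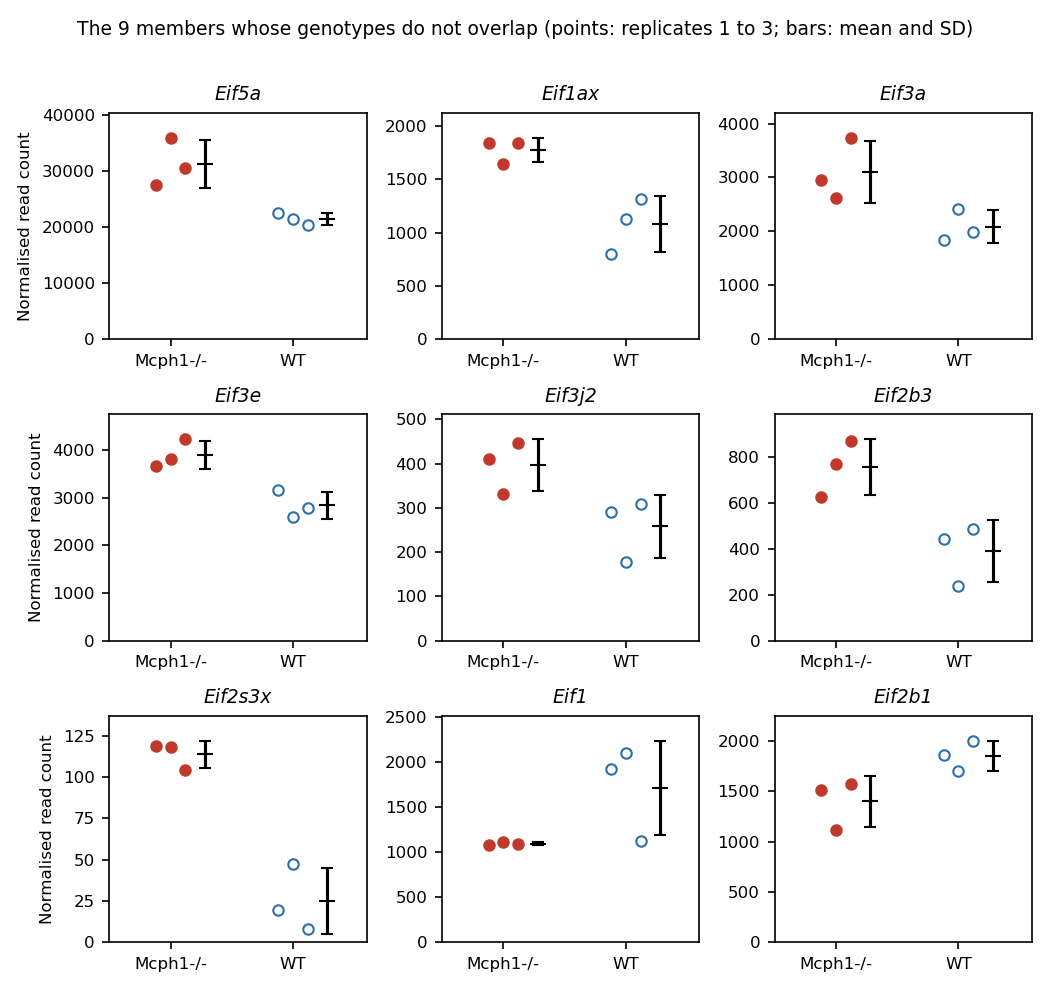
Normalised read counts of the 9 genes whose genotypes do not overlap, with the 3 Mcph1-/- libraries left of the 3 WT libraries, and the mean and SD beside each. Eif5a, Eif1ax, Eif3a, Eif3e, Eif3j2, Eif2b3 and Eif2s3x were higher in Mcph1-/-, and Eif1 and Eif2b1 were lower.

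In the eIF1 group, which holds start codon selection factors and Eif1ad, Eif1ax was higher and Eif1 lower in every Mcph1-/- library. The other 3 genes overlapped. eIF1A, which Eif1ax on the X chromosome and Eif1a on chromosome 18 both encode, steadies the scanning ribosome. Eif1ax (chromosome X, 159372178 to 159389928, mm10) stood at 1841, 1648 and 1845 in Mcph1-/- and 796, 1124 and 1314 in WT (replicates 1 to 3, as in all such values here), a log2 fold change of 0.75 ± 0.26 (SE; adjusted p = 0.626 by limma). The lowest Mcph1-/- library was above the highest WT library. Eif1a had 1466, 1918 and 1759 in Mcph1-/- and 1305, 1363 and 2131 in WT, with both genotypes over the same range and a log2 fold change of 0.13 ± 0.26 (SE; adjusted p = 0.911 by limma). Eif1 encodes the factor that keeps the ribosome from starting at poor codons. Its values were 1079, 1114 and 1085 in Mcph1-/- and 1919, 2091 and 1119.6 in WT, a log2 fold change of -0.59 ± 0.29 (SE; adjusted p = 0.662 by limma). The Mcph1-/- libraries were nearly equal and WT replicate 3 lay just above them, while WT replicates 1 and 2 were far higher. Eif1 is uncertain, since 25.9% of its transcript is near-identical to 4 other annotated genes. Its relative Eif1b had 2145, 1468 and 2204 in Mcph1-/- and 2221, 1555 and 1524 in WT, with log2 fold change 0.13 ± 0.26 (SE; adjusted p = 0.904 by limma). Eif1ad, named for a domain like that of eIF1A, had a log2 fold change of 0.34 ± 0.35 (SE; adjusted p = 0.795 by limma) and shares exonic sequence with Banf1 on the other strand.

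The eIF2 group was formed by symbol, from the subunits of the initiator tRNA carrier together with Eif2a and Eif2d. All 5 genes had a positive log2 fold change, with a median of 0.89, and none passed. Eif2s1 encodes the alpha subunit that stress kinases phosphorylate. It stood at 4563, 4663 and 4236 in Mcph1-/- and 1789, 1605 and 4969 in WT, a log2 fold change of 0.89 ± 0.39 (SE; adjusted p = 0.655 by limma). WT replicate 3 was the highest of all 6 libraries while WT replicates 1 and 2 were below every Mcph1-/- library, and without WT replicate 3 the difference was 1.40 on the log2 scale (limma adjusted p = 0.130). Eif2s2, the beta subunit, had 791, 698 and 895 in Mcph1-/- and 868, 650.1 and 639.8 in WT and a 95% interval of -0.53 to 0.84 around a log2 fold change of 0.15 ± 0.30 (SE). The gamma subunit is encoded by Eif2s3x on the X chromosome (94188707 to 94212862, mm10) and by its Y-linked copy. Eif2s3x had 119, 118 and 104 in Mcph1-/- and 19.5, 47.4 and 8.10 in WT, or 117 to 144 reads in Mcph1-/- and 8 to 46 in WT, and its log2 fold change was 2.46 ± 1.31 (SE; adjusted p = 0.666 by limma). This was the highest fold change of the 46, with the lowest level per kb. Eif2s3y, left out by the choice of genes, had 610.3, 806 and 638 in Mcph1-/- and 149.7, 563 and 1326 in WT. Its log2 fold change was 0.50 ± 0.72 (SE; adjusted p = 0.865 by limma). The Y-linked gene took most reads of the pair in all 6 libraries, and together the 2 genes had 729, 924 and 743 in Mcph1-/- and 169, 609.9 and 1334 in WT. These sums overlapped, with WT replicates 1 and 3 at the lowest and the highest value.

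The other 2 genes of the eIF2 group, which can deliver initiator tRNA or other tRNAs outside the main route, varied more. Eif2a had 655, 1098 and 551 in Mcph1-/- and 618, 217 and 359 in WT, a log2 fold change of 1.01 ± 0.50 (SE; adjusted p = 0.662 by limma), in which Mcph1-/- replicate 2 was highest and WT replicate 1 lay within the Mcph1-/- range. Eif2d had 174, 438 and 558 in Mcph1-/- and 129, 215 and 781 in WT, and WT replicates 1 and 3 spanned all Mcph1-/- values. Its log2 fold change of 0.32 ± 0.79 (SE) had a 95% interval of -1.49 to 2.14, which takes in a 2-fold difference in either direction.

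The 5 eIF2B subunit genes, whose complex is the GTP exchange factor of eIF2, lay on both sides of 0, with 2 higher and 3 lower, and the median of their log2 fold changes was -0.15. Eif2b3 (gamma, part of the catalytic pair with epsilon) stood at 626, 768 and 866 in Mcph1-/- and 444, 237 and 487 in WT, a log2 fold change of 1.01 ± 0.41 (SE; adjusted p = 0.641 by limma). Its genotypes did not overlap. Eif2b1 (alpha, of the regulatory core) had 1517, 1112 and 1579 in Mcph1-/- and 1859.8, 1703 and 1997 in WT, a log2 fold change of -0.42 ± 0.23 (SE; adjusted p = 0.666 by limma), with every Mcph1-/- library below every WT library. Eif2b2 (beta) had 1655, 1109.9 and 1444 in Mcph1-/- and 1779.6, 553 and 705 in WT, where WT replicate 1 was highest and WT replicates 2 and 3 lowest, and a log2 fold change of 0.64 ± 0.44 (SE; adjusted p = 0.706 by limma). Eif2b4 (delta) had 1130.2, 954 and 377 in Mcph1-/- and 1045, 871 and 753 in WT, with Mcph1-/- replicate 3 far below the rest, and a log2 fold change of -0.25 ± 0.44 (SE; adjusted p = 0.889 by limma). Eif2b5 (epsilon), the catalytic subunit itself, had 322, 1030.3 and 589 in Mcph1-/- and 360.0, 717 and 1043 in WT. It varied about 3-fold within each genotype, and its log2 fold change of -0.15 ± 0.55 (SE) had a 95% interval of -1.42 to 1.11. Summed eIF2B values overlapped, at 5249.9, 4974 and 4854 in Mcph1-/- and 5488, 4081 and 4984 in WT.

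eIF3 is the large scaffold on the small ribosomal subunit, and 11 of its 14 genes had a positive log2 fold change, with a median of 0.13. Eif3a, the largest subunit, and Eif3e were higher in every Mcph1-/- library. Eif3a (chromosome 19, 60761117 to 60790658, mm10) stood at 2956, 2618 and 3734 in Mcph1-/- and 1836, 2423 and 1990.1 in WT, a log2 fold change of 0.57 ± 0.21 (SE; adjusted p = 0.626 by limma). Eif3e (chromosome 15, 43250058 to 43282719, mm10) stood at 3661, 3803 and 4222 in Mcph1-/- and 3155, 2598 and 2784 in WT, a log2 fold change of 0.45 ± 0.17 (SE; adjusted p = 0.626 by limma). Both differences were below 2-fold, and neither passed over all genes. Eif3g, an RNA-binding subunit, had 4329, 5311 and 4073 in Mcph1-/- and 2533, 4504 and 4063 in WT. Only WT replicate 1 lay clearly apart, and the log2 fold change was 0.34 ± 0.24 (SE; adjusted p = 0.723 by limma). The most highly read, Eif3k, had 6090.0, 5851 and 5294 in Mcph1-/- and 6218, 5546 and 5022 in WT, and its log2 fold change of 0.041 ± 0.15 (SE) had a 95% interval of -0.31 to 0.39, the narrowest of the 14 genes. Eif3i had 2338, 4324 and 4294 in Mcph1-/- and 3382, 3834 and 3155 in WT, with Mcph1-/- replicate 1 below all other libraries. Eif3f, Eif3h, Eif3i and Eif3l had log2 fold changes of 0.21 ± 0.21 (SE), 0.094 ± 0.22 (SE), 0.029 ± 0.26 (SE) and 0.083 ± 0.41 (SE), all with overlapping genotypes.

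Lower mean log values were found for the eIF3 genes Eif3b, Eif3c and Eif3m, each with overlap. Eif3b had 1448, 1300.2 and 390.2 in Mcph1-/- and 886, 1289.9 and 956 in WT. Mcph1-/- replicate 3 was the single low library, and the log2 fold change was -0.19 ± 0.50 (SE; adjusted p = 0.937 by limma). Eif3c had 1368, 2167 and 2174 in Mcph1-/- and 1954, 2239.8 and 1876 in WT, a log2 fold change of -0.12 ± 0.24 (SE; adjusted p = 0.914 by limma), with Mcph1-/- replicate 1 lowest. Eif3m had 1915, 2169 and 2253 in Mcph1-/- and 2541, 1999.7 and 2506 in WT, a log2 fold change of -0.15 ± 0.19 (SE; adjusted p = 0.847 by limma). It is uncertain, since 87.7% of its transcript is near-identical to another annotated gene. Eif3d, the subunit that can itself bind caps, ranged from 986 to 3271 in Mcph1-/- and 1181 to 2322 in WT, a log2 fold change of 0.17 ± 0.45 (SE; adjusted p = 0.938 by limma). It shares 2151 exonic bases with a gene on the other strand, so reads of these bases could come from either gene. The same holds for 1643 bases of Eif5b (with Rev1) and 1107 bases of Eif3j1 (with Spg11).

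The loosely bound subunit eIF3j is encoded by the near-identical genes Eif3j1 and Eif3j2. Eif3j2 stood at 411, 331 and 446 in Mcph1-/- and 289.5, 177 and 309 in WT, without overlap, and a log2 fold change of 0.64 ± 0.49 (SE; adjusted p = 0.727 by limma). Eif3j1 had 320.2, 144 and 336 in Mcph1-/- and 167, 77.3 and 232 in WT, with overlap, and a log2 fold change of 0.78 ± 0.76 (SE; adjusted p = 0.780 by limma). Because the whole Eif3j2 transcript and 56.0% of that of Eif3j1 match the other or a further gene, the split of reads between them is uncertain.

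None of the 13 eIF4 genes separated the genotypes, where 14.2% of all tested genes did, and that gap was not tested. The 13 had a median log2 fold change of 0.0063. Eif4e encodes the cap-binding protein itself. It stood at 2045, 2407 and 1782 in Mcph1-/- and 1224, 1494 and 2029.6 in WT, a log2 fold change of 0.41 ± 0.25 (SE; adjusted p = 0.686 by limma), with WT replicate 3 inside the Mcph1-/- range. Eif4e2, a cap-binding relative linked to repression, had 1999, 783 and 1456 in Mcph1-/- and 876, 2109 and 906 in WT, and each genotype spanned more than 2-fold. Its log2 fold change was 0.15 ± 0.45 (SE; adjusted p = 0.948 by limma). Eif4ebp1, the 4E-binding protein that mTORC1 controls, was the most highly read of the group, at 3299.5, 3489.6 and 3991 in Mcph1-/- and 2614, 4001 and 2468 in WT. WT replicate 2 was highest of all libraries, and the log2 fold change was 0.28 ± 0.22 (SE; adjusted p = 0.740 by limma). Eif4ebp3 was near the limit of detection, at 8.21, 36.9 and 0 in Mcph1-/- and 0, 5.15 and 50.6 in WT, with 0 reads in 1 library of each genotype. A count of 0 allows up to 3 reads there, a value of 2.68 in Mcph1-/- replicate 3 and 3.25 in WT replicate 1, for counting error only. Eif4enif1, whose product carries eIF4E into the nucleus, had 1013, 62.3 and 329 in Mcph1-/- and 593, 581 and 74.9 in WT, with more than a 7-fold spread within each genotype.

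The eIF4G scaffolds link the cap complex to eIF3. Eif4g1 stood at 288, 355 and 967 in Mcph1-/- and 630.1, 431 and 360.4 in WT, a log2 fold change of 0.0063 ± 0.54 (SE; adjusted p = 0.998 by limma), with Mcph1-/- replicate 3 highest. Eif4g2, a form that lacks the eIF4E site, had 2006, 1135 and 1813 in Mcph1-/- and 1335, 1318 and 2338 in WT, with WT replicate 3 highest. Its 95% interval of -0.74 to 0.75 on the log2 scale reached 1.68-fold higher in Mcph1-/-, and that of Eif4g1 (-1.24 to 1.26) reached 2.39-fold. Eif4g3 ranged from 139 to 298 in Mcph1-/- and 112 to 335 in WT.

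The helicase eIF4A unwinds the messenger RNA with eIF4B and eIF4H. Eif4a1 stood at 599, 623 and 692 in Mcph1-/- and 919, 802 and 619.5 in WT, a log2 fold change of -0.27 ± 0.31 (SE; adjusted p = 0.813 by limma), and 68.7% of its transcript is near-identical to an annotated pseudogene. Eif4a2 had 3422, 3313 and 3418 in Mcph1-/- and 1465, 2069.8 and 4643 in WT. The Mcph1-/- libraries lay close together while WT replicates 1 and 3 were the lowest and the highest of all, and the log2 fold change was 0.49 ± 0.38 (SE; adjusted p = 0.728 by limma). Its exons overlap Rfc4 on the other strand and small RNA genes. Eif4a3, the helicase of the exon junction complex, ranged from 1495 to 2316 in Mcph1-/- and 1206 to 1850.3 in WT, a log2 fold change of 0.18 ± 0.27 (SE). Eif4b had 1242, 697 and 1319 in Mcph1-/- and 976, 1328 and 1458 in WT, a log2 fold change of -0.24 ± 0.33 (SE; adjusted p = 0.852 by limma). Eif4h had 1289, 814 and 298 in Mcph1-/- and 1955, 795 and 853 in WT, and its log2 fold change of -0.69 ± 0.58 (SE; adjusted p = 0.750 by limma) was the lowest of the 46 with all 6 libraries. It lay between -1.16 and -0.10 when 1 library was left out. Mcph1-/- replicate 3 was low and WT replicate 1 high, and the other 4 libraries overlapped.

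Of the late-acting factors, Eif5a had the smallest p of the 46. The gene (chromosome 11, 69916714 to 69921958, mm10) stood at 27419, 35859.7 and 30568 in Mcph1-/- and 22478, 21422 and 20266 in WT, or 31282 ± 4266 in Mcph1-/- and 21389 ± 1107 in WT (SD, n = 3 each). Every Mcph1-/- library exceeded every WT library. The log2 fold change was 0.54 ± 0.13 (SE; adjusted p = 0.540 by limma), or 1.45-fold with a 95% interval of 1.18 to 1.80, and its unadjusted p was 0.00347. It was 0.44 to 0.63 when any 1 library was left out. A part of its transcript, 32.2%, is near-identical to 2 other annotated genes, of which Eif5al3-ps was at 264 to 487 in all 6 libraries. Eif5, the GTPase activator of eIF2, had 4381, 4363 and 4971 in Mcph1-/- and 4365, 4082 and 7502 in WT, a log2 fold change of -0.16 ± 0.24 (SE; adjusted p = 0.867 by limma), with WT replicate 3 far above the other 5 libraries. Eif5b, the GTPase of subunit joining, had 1663, 1672 and 1413 in Mcph1-/- and 1439, 1364 and 2000.3 in WT. Its log2 fold change of 3.5e-04 had a 95% interval of -0.54 to 0.54. Eif6, which keeps the large subunit free until it is needed, had 2789.6, 3607 and 3649 in Mcph1-/- and 2779, 2369.6 and 3797 in WT, a log2 fold change of 0.18 ± 0.23 (SE; adjusted p = 0.831 by limma).

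Related genes can shift in balance without a shift in their sum, and a ratio within a library (of values + 1) hardly depends on the size factor. Of 7 pairs looked for, 6 had both genes listed, and Eif5a2 is not analysed here. The log2 ratio of Eif1ax to Eif1a was 0.33, -0.22 and 0.069 in Mcph1-/-, against -0.71, -0.28 and -0.70 in WT. It was higher in all 3 Mcph1-/- libraries. The difference was 0.62, and its p of 0.1 in a two-sided exact permutation test is the lowest possible with 3 libraries a genotype (0.6 after Benjamini-Hochberg adjustment over 6 pairs). The log2 ratio of Eif1 to Eif1b was -0.99, -0.40 and -1.02 in Mcph1-/-, against -0.21, 0.43 and -0.45 in WT, with overlap (difference -0.73, exact permutation p = 0.2, adjusted 0.6). For Eif4a1 to Eif4a2 it was -2.51, -2.41 and -2.30 in Mcph1-/-, against -0.67, -1.37 and -2.90 in WT. The Mcph1-/- libraries were close together (SD 0.10) and the WT libraries were not (SD 1.14) (difference -0.76, exact permutation p = 0.4, adjusted 0.8). The pairs of Eif4e to Eif4e2, Eif4g1 to Eif4g2 and Eif3j1 to Eif3j2 differed by 0.27, 0.0044 and 0.14, each within the spread between libraries (exact permutation p = 0.7, 1.0 and 0.7; adjusted 0.84, 1.0 and 0.84).

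**Figure D4:**
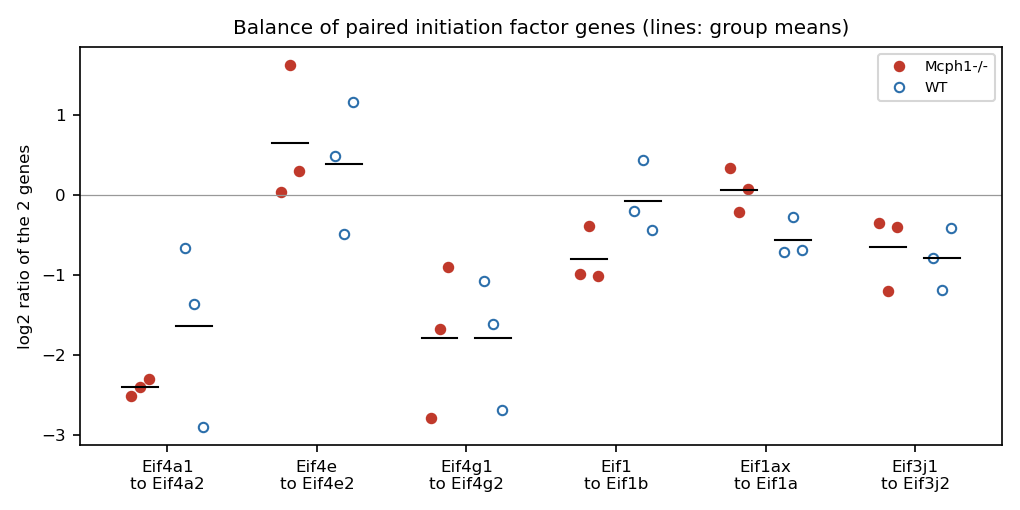
log2 ratio of the normalised read counts (+ 1) of 2 related genes in each library, Mcph1-/- filled and left of WT open, with lines at the group means. The genotypes separate only for Eif1ax to Eif1a, and the Mcph1-/- libraries cluster for Eif4a1 to Eif4a2 within the wide WT range.

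Other genes that act on initiation or follow it were read from 5 lists. None of their 49 tested members passed with limma or edgeR, and DESeq2 called 1, Trib3. At an unadjusted limma p under 0.05, 2 were higher and 1 lower in Mcph1-/- (against 4.16% and 3.55% of all tested genes). Without overlap, 1 of 11 stress response genes lay lower, and of 15 mTORC1 and eIF4E signalling genes 1 lay higher and 1 lower. The elongation and termination list (10 tested) and the initiation partners (11 tested) had 1 each, both higher, and the 2 hypusine genes 0. Of all tested genes, 14.2% did not overlap. The stress response list held the eIF2 kinases, the opposing phosphatase subunits and ATF4 with its targets. There 6 of 11 tested genes were higher and 5 lower, and the log2 fold changes had a median of 0.32, beside 0.076 over all tested genes. Trib3, a pseudokinase and ATF4 target, stood at 221, 222 and 172 in Mcph1-/- and 394, 756 and 583 in WT, a log2 fold change of -1.45 ± 0.48 (SE; adjusted p = 0.626 by limma). Every Mcph1-/- library was below every WT library. Nupr1, a stress-induced chromatin protein, had 1050.0, 763 and 364 in Mcph1-/- and 1457, 1246 and 1048 in WT, and its log2 fold change was -0.90 ± 0.41 (SE; adjusted p = 0.662 by limma). Ppp1r15a, the induced phosphatase subunit that dephosphorylates eIF2, had 307, 952 and 226 in Mcph1-/- and 956, 1437 and 512 in WT and a log2 fold change of -1.14 ± 0.62 (SE; adjusted p = 0.666 by limma). Both overlapped between the genotypes.

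In the mTORC1 and eIF4E signalling list 10 of 15 were higher and 5 lower (median 0.31). Tsc1, a brake on mTORC1, was lower in every Mcph1-/- library, at 119, 264 and 259.8 in Mcph1-/- and 788, 590.3 and 291 in WT, a log2 fold change of -1.35 ± 0.60 (SE; adjusted p = 0.655 by limma). Deptor, an mTOR inhibitor, was higher in every Mcph1-/- library, at 340.3, 806 and 233 in Mcph1-/- and 229, 158 and 153 in WT, a log2 fold change of 1.17 ± 0.64 (SE; adjusted p = 0.666 by limma). Mknk1, a kinase that phosphorylates eIF4E, had 192, 259 and 474 in Mcph1-/- and 32.5, 340.0 and 35.4 in WT, with overlap and a log2 fold change of 1.95 ± 1.10 (SE; adjusted p = 0.669 by limma). WT replicate 3 was close to the Mcph1-/- range for Tsc1, and WT replicate 2 lay inside it for Mknk1. Of 10 elongation and termination genes 5 were higher and 5 lower (median 0.096). Abce1, which splits ribosomes for another round of initiation, stood at 944, 1505 and 958 in Mcph1-/- and 41.2, 146 and 832 in WT, a log2 fold change of 2.68 ± 0.96 (SE; adjusted p = 0.626 by limma). WT replicates 1 and 2 were far below the other libraries, and WT replicate 3 was close to the lowest Mcph1-/- library. Gspt1, the release factor eRF3a, had 749.8, 303 and 690.2 in Mcph1-/- and 484, 144 and 351 in WT, and Eef2, the translocation factor, had 6581, 4919 and 5939 in Mcph1-/- and 7439, 6710.0 and 6162 in WT. Their log2 fold changes were 0.89 ± 0.61 (SE) and -0.23 ± 0.16 (SE), with overlap in both.

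Dhps and Dohh encode the enzymes that make the hypusine of eIF5A. Dhps had 523, 294 and 997 in Mcph1-/- and 669, 394 and 12.1 in WT, and Dohh had 1169, 432 and 640.2 in Mcph1-/- and 936, 375 and 0 in WT. WT replicate 3 was far below the other 5 libraries for both, and those 5 overlapped. The log2 fold changes, 1.82 ± 1.38 (SE; adjusted p = 0.727 by limma) for Dhps and 3.28 ± 2.26 (SE; adjusted p = 0.708 by limma) for Dohh, include that library, and with Dohh at 0 reads there its fold change depends on the pseudocount. Among the 11 tested partners of initiation, 8 were higher and 3 lower (median 0.37). Ncbp2, the nuclear cap-binding subunit, stood at 1459, 1243 and 1274 in Mcph1-/- and 679.9, 365 and 909 in WT, without overlap, a log2 fold change of 1.12 ± 0.37 (SE; adjusted p = 0.626 by limma). Paip1, a partner of the poly(A)-binding protein, had 378, 438 and 559.8 in Mcph1-/- and 149, 148 and 531 in WT, a log2 fold change of 0.99 ± 0.63 (SE), with WT replicate 3 inside the Mcph1-/- range. Dhx29, a scanning helicase, had 262, 153 and 254 in Mcph1-/- and 203, 188 and 0 in WT, and the libraries with reads overlapped.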

How the data were processed

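Smart-seq2 cDNA of 200 sorted cells was sequenced from both ends on an Illumina machine, per the labels' protocols. The tools in the submitters' processing notes are Trim Galore 0.6.6, HISAT2, featureCounts and DESeq2, and the build is mm10. Neither their order nor the strand setting and annotation release are given in the sources used here. The authors deposited a signal for every gene and library that equals read counts over a size factor. The values show this, since 100% are whole multiples of 1 read within 0.001 reads. All listed genes have reads in 4 or more of the 6 libraries, so genes read in a single genotype would be missing.

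Genes with a mean of at least 10 were tested with limma 3.58.1 (trend) on log2(value + 1), genotype being the sole term, Benjamini-Hochberg adjustment over 10846 genes and 0.05 as the threshold. Fold changes are differences of mean log2(value + 1), a scale on which the pseudocount shrinks changes of low genes. A single library close to 0 can also carry the value past the ratio of means, as for Dohh and Eif2s3x. The alternatives were edgeR 4.0.16 (2 genes called) and DESeq2 1.42.0 on the recovered reads, a pseudocount of 16, other filters, a replicate block and leaving out each library. limma, edgeR and DESeq2 were first run on simulated reads. The planted changes there were far larger than most differences described here, so that run cannot tell whether such differences would be found. Libraries of a genotype differed by more than sampling noise (chi-square over its degrees of freedom was 82.9 or more). Zero-count limits cover counting error only, as PCR copies are counted as reads.

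Values in every library are given for the 10 genes with the lowest p each way, the 8 highest, 11 chosen by name, related pairs and genes with 0 reads, and for 3 genes of each other list by p. The genes and lists were chosen with earlier results of these data known. Positions and exon lengths come from a GENCODE annotation of mm10. Near-identical means at least 97% identity over at least 100 bases to another annotated gene outside the locus, found for 10 of the 46, and 18 share exonic bases with another gene.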

Additional observations from a re-analysis of the deposited data

How the results depend on the processing

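Under the alternatives none of the 46 passed wherever it had an adjusted p, except 1, Eif5a, by DESeq2, which also called 1 gene of the other translation lists. DESeq2 gave no adjusted p for 4 of them, and Eif4ebp3 was not tested at a mean of at least 50. Over all genes 4 passed in limma, 2 by edgeR, 234 by DESeq2 and 1 to 4 when 1 library was left out; the cause was not tested. The median log2 fold change over the 46 was 0.090 to 0.23 and the number without overlap 10 to 15 when 1 library was left out, where fewer libraries make overlap less likely, as in the 22.1% to 30.8% of all tested genes then without overlap, against 14.2% with all 6. The replicate block and the 2 other filters leave each fold change as it is. Of the 414 gene values under the remaining alternatives, 357 kept direction and side, 1 passed and 56 changed sign, all of genes whose log2 fold change was at most 0.32 in size. The 357 include the DESeq2 values of Eif2s3x, Eif3j1 and Eif4g3, which kept direction but had no adjusted p to place them. Signs changed by edgeR for Eif4enif1 (0.19), Eif3l (-0.073), Eif3b (0.032), Eif4ebp3 (-0.26), by DESeq2 for Eif4g2 (-0.013), Eif4enif1 (0.17), Eif5b (-0.019), Eif3l (-0.10), Eif3b (0.0011), Eif4ebp3 (-0.31), and with a pseudocount of 16 for Eif4ebp3 (-0.046). Leaving out 1 library changed signs within these ranges: Eif1a -4.7e-04 to 0.35, Eif2b4 -0.56 to 0.24, Eif2b5 -0.57 to 0.27, Eif2d -0.23 to 1.06, Eif3b -0.53 to 0.41, Eif3c -0.23 to 0.11, Eif3d -0.22 to 0.64, Eif3h -0.042 to 0.25, Eif3i -0.12 to 0.32, Eif3k -0.034 to 0.12, Eif3l -0.35 to 0.55, Eif4a3 -0.021 to 0.33, Eif4b -0.41 to 0.050, Eif4e2 -0.15 to 0.56, Eif4ebp3 -1.34 to 1.51, Eif4enif1 -1.09 to 0.96, Eif4g1 -0.52 to 0.35, Eif4g2 -0.16 to 0.27, Eif4g3 -0.52 to 0.27, Eif5 -0.33 to 0.11, Eif5b -0.10 to 0.17. Genes that kept their sign moved too, for example Eif4a2 0.13 to 0.96, Eif2b2 0.31 to 1.15, Eif3g 0.086 to 0.50 and Eif4h -1.16 to -0.10. For the paired genes, leaving out 1 library gave differences of 0.49 to 0.76 (Eif1ax to Eif1a), -0.93 to -0.48 (Eif1 to Eif1b) and -1.39 to -0.27 (Eif4a1 to Eif4a2), with a change of sign at -0.22 to 0.66 (Eif4e to Eif4e2), -0.44 to 0.51 (Eif4g1 to Eif4g2) and -0.054 to 0.41 (Eif3j1 to Eif3j2). Replicate numbers are shared by the genotypes, but same-numbered libraries did not deviate together (r = -0.014, 0.018 and -0.030). With the replicate block 0 of the 46 and 3 of all genes passed. Depth limits Eif4ebp3 and Eif2s3x most, with as few as 0 and 8 reads in a library.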

Other observations

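WT replicate 3 was the highest WT library for 20 of the 46 genes (43.5%), against 35.1% of all tested genes. It was the lowest for 16 (34.8%), near the 34.2% of all tested genes. Eif5, Eif2s1, Eif4a2, Eif1a, Eif2d and Eif6 were among the genes at their highest of all 6 libraries there. Dhps, Dohh and Dhx29, which are not among the 46, were at their lowest. Among the Mcph1-/- libraries, replicate 3 was the highest for 22 genes (47.8%, against 33.0%). These shares describe single libraries and were not tested.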
